A study of Homo sapiens with 54 samples.

Results

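The expression change that cisplatin left 24 h after its addition was measured in NCI-H460 cells that had first been given cigarette smoke extract. The members are 6 of the 54 arrays of the series, chosen by their titles: 3 arrays of cells given smoke extract and then cisplatin, and 3 arrays of cells given smoke extract alone, both harvested at 24 h. NCI-H460 is an established cell line from a human lung large cell carcinoma. All cultures were grown without serum for the last day before treatment. Smoke extract was dosed by its nicotine content, at 5 uM nicotine equivalent, and cisplatin followed after 2 h at 1 uM. Smoke extract was thus present in both groups, and the comparison sets cisplatin added to extract against extract alone. For reference, the matched groups without extract were untreated cells and cells given cisplatin alone, and those with nicotine at 5 uM in place of extract were cells given nicotine with or without cisplatin, all at 24 h. Further groups were cells given extract with or without cisplatin and harvested at 2 h, and cells given extract and then 6 Gy of radiation, harvested at 24 h. Each had 3 arrays, and all groups came from 1 cell line at 1 passage. The p-values thus rest on the spread between cultures of that line, pooled over the 18 groups of the series.

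Cisplatin forms crosslinks in DNA that block replication forks and RNA polymerase. Damaged cells can stabilise the transcription factor p53, which switches on cell cycle inhibitors, repair factors and regulators of cell death, while genes needed for DNA synthesis and mitosis are shut down as cycling stops. Short-lived messages, such as those of immediate early genes and chemokines, respond quickly when transcription or MAP kinase signalling changes. Cigarette smoke extract holds polycyclic aromatic hydrocarbons, oxidants and nicotine, and is known for inducing CYP1A1 through the aryl hydrocarbon receptor.

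Values are log2 intensities of 18417 genes. Within each of the 2 groups the arrays correlated at r = 0.992 to 0.995 over genes, array medians lay between 7.04 and 7.06, and 0 pairs of arrays were identical. Keratin genes of epithelial cells were abundant: KRT8 averaged 11.87 and KRT18 averaged 11.25 in cells given both agents. EPCAM, at 5.19, and CDH1, at 5.32, lay far lower, as these genes did in the cells given extract alone (5.24 and 5.11). All 10 epithelial markers of the list averaged 7.98 to 8.01 per array after both agents and 7.97 to 8.00 after extract alone. Leukocyte markers (11 measured) averaged 5.38 to 5.51 per array after both agents and 5.31 to 5.42 after extract alone, above EPCAM and CDH1. The ranges were 5.65 to 5.72 against 5.49 to 5.62 for 10 fibroblast markers and 5.56 to 5.74 against 5.48 to 5.68 for 9 endothelial markers. The 341 olfactory receptor genes, a family taken here as mostly silent and used as a measure of the array's floor, averaged 4.71 to 4.84 after both agents and 4.54 to 4.73 after extract alone. The median olfactory receptor gene thus lay 0.16 higher after cisplatin, and the median leukocyte, fibroblast and endothelial markers lay 0.13, 0.19 and 0.15 higher, with 0 genes called. With the floor as a covariate these marker medians were 0.03, 0.05 and -0.03. The contribution of the floor to the results was not tested. Medians with it as a covariate are given beside those of the protein-coding lists.

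Cisplatin lowered 14 genes and raised 1 in smoke extract pretreated cells. A gene was called at an adjusted p under 0.05 in limma with Benjamini-Hochberg adjustment over all genes. The 15 called genes are 0.0814% of those tested, with 0.076% lower and 0.00543% higher. At an unadjusted p under 0.05 there were 2403 genes, 1279 higher and 1124 lower. The genes that fell belong to signal feedback (DUSP1, RGS2), secreted signals (CCN1, EDN1, CXCL8), DNA replication and repair (MCM10, WDHD1, UNG), maintenance of DNA methylation (DNMT1), mitosis (AURKB), nucleoside uptake (SLC29A1), lipid synthesis (SCD), the proteasome (PSMA6) and calcium binding (CALB2).

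**Figure D1:**
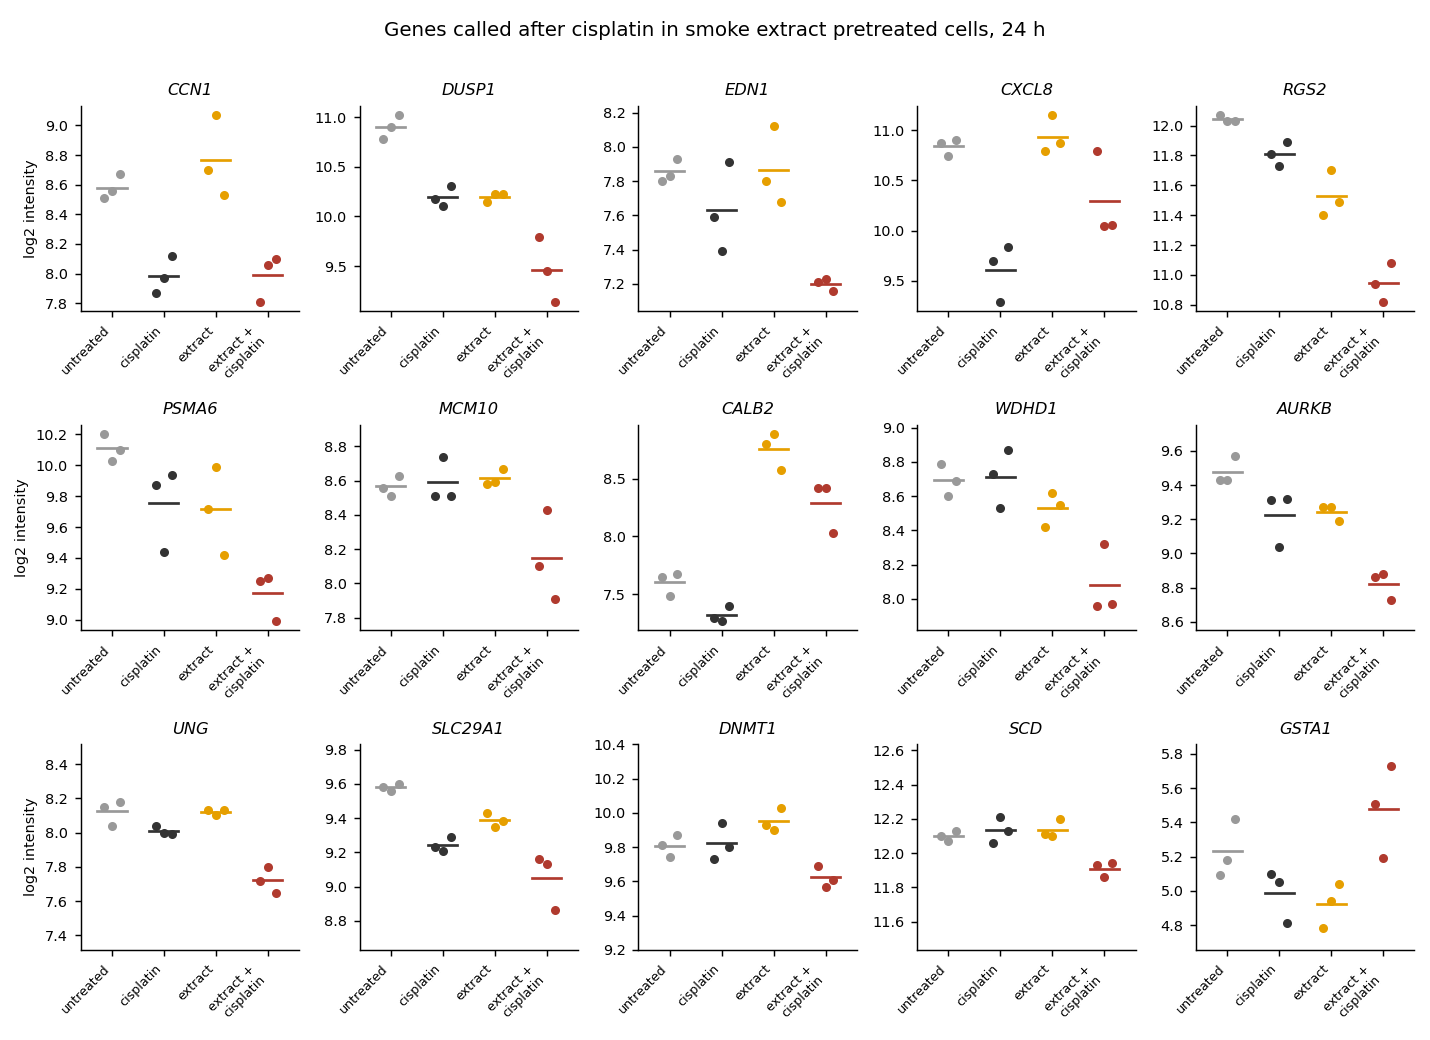
Log2 intensity of the 15 called genes in untreated cells, cells given cisplatin, cells given smoke extract and cells given both, all at 24 h (points: 3 arrays per group; line: group mean; each panel has its own axis range). In every panel but those of CXCL8 and GSTA1 the 3 arrays with both agents lie below the 3 with extract alone; for GSTA1 they lie above, and for CXCL8 the groups overlap.

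The smallest adjusted p was that of RGS2, which encodes a regulator that switches off G protein signalling. Its log2 intensities were 10.94, 10.82 and 11.08 after both agents, against 11.40, 11.70 and 11.49 after extract alone, so the groups were apart. The change was -0.58 ± 0.07 (log2, SE, n = 3 against 3; limma adjusted p = 1.41e-05). In the comparison without extract, the change of RGS2 was -0.23 ± 0.07 and was not called (limma adjusted p = 0.0652). The difference between these changes, -0.35 with a 95% interval from -0.56 to -0.13, was not called either (limma adjusted p = 0.0904).

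DUSP1 encodes a phosphatase that inactivates MAP kinases. It measured 9.79, 9.45 and 9.14 after both agents and 10.14, 10.23 and 10.23 after extract alone. No array with cisplatin reached the level of any without it. The change was -0.74 ± 0.11 (limma adjusted p = 0.000137), or 1.67-fold lower. It was nearly the same size without extract, at -0.70 ± 0.11, and after nicotine, at -0.72, and both were called. The difference between the changes with and without extract was -0.03, with a 95% interval from -0.34 to 0.27.

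RGS2 and DUSP1 were the 2 genes that stayed called whichever of the 6 arrays was left out. Without replicate 1 or replicate 2 of the extract group, or without replicate 3 of the group given both agents, these 2 were the only genes called, while 34 were called without replicate 3 of the extract group. A limma fit on the 6 arrays alone called 0 genes (unadjusted p under 0.05 for 2340). With the floor as a covariate 3 genes were called, and RGS2 and DUSP1 were the only reported calls among them. The other 13 calls rest on particular arrays, and all 13 were lost with the floor as a covariate.

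Among secreted signals, CCN1, a matrix-bound protein that acts through integrins, had the largest called change. It measured 7.81, 8.06 and 8.10 after both agents and 8.70, 9.07 and 8.53 after extract alone, with no overlap. It fell by 0.78 ± 0.15 on the log2 scale (limma adjusted p = 0.0264), or 1.71-fold. EDN1, the precursor of the vasoconstrictor endothelin, measured 7.21, 7.23 and 7.16 against 7.80, 8.12 and 7.68. Its 3 arrays with cisplatin were close together and below all arrays without it, a change of -0.66 ± 0.14 (limma adjusted p = 0.0284). CXCL8, the neutrophil-attracting chemokine interleukin 8, measured 10.79, 10.04 and 10.05 after both agents and 10.79, 11.15 and 10.87 after extract alone. Replicate 1 of the cells given both agents matched the lowest array of the other group, so the groups touch. Its change of -0.64 ± 0.13 was called (limma adjusted p = 0.0264), beside -1.23 ± 0.13 without extract. The difference of 0.59, with a 95% interval from 0.21 to 0.96, was not called (limma adjusted p = 0.0977).

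The promoters of the called genes were read for 3 short elements that link signalling or the cell cycle to transcription. Windows came from RefSeq (GRCh38.p14), and 13 of the 15 called genes had at least 1, with 19 windows in all. The elements were the AP-1 site TGANTCA, the cyclic AMP response element TGACGTCA and an E2F-like element TTTNNCGC, searched on both strands in the 250 bases before the start. An AP-1 match lay in 1 called gene, CXCL8, a cyclic AMP element in 2, DUSP1 and MCM10, and an E2F-like element in 1, UNG. Of 35116 windows of the same length, 6.57%, 1.65% and 5.92% held these elements. These shares count windows, while the matches above count genes, some of which had more than 1 window. The last 150 bases before the start are shown for 3 of these genes, with the match in capitals, at chr4:73740419-73740568 (plus strand) for CXCL8, chr5:172771196-172771345 (minus strand) for DUSP1 and chr10:13161408-13161557 (plus strand) for MCM10. A match describes the letters of the window and shows no binding.
CXCL8: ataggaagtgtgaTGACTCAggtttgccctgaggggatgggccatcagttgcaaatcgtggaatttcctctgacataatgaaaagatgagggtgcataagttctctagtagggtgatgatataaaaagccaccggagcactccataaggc
DUSP1: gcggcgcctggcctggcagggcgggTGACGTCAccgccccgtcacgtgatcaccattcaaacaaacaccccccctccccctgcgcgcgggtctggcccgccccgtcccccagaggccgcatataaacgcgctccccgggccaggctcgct
MCM10: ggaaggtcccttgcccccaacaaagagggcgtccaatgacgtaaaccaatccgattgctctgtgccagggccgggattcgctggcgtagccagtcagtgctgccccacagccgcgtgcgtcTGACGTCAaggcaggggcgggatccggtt

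Genes of DNA replication and chromosome maintenance made up the next group of falls. MCM10, an initiation factor that helps start replication at origins, measured 8.10, 8.43 and 7.91 after both agents and 8.58, 8.59 and 8.67 after extract alone. The groups did not overlap, and the change was -0.47 ± 0.10 (limma adjusted p = 0.029). WDHD1, which tethers DNA polymerase alpha to the fork, measured 7.96, 8.32 and 7.97 against 8.42, 8.62 and 8.55, a change of -0.45 ± 0.09 (limma adjusted p = 0.0264). DNMT1, the methyltransferase that copies methylation onto new DNA, measured 9.69, 9.57 and 9.61 against 9.93, 9.90 and 10.03. All arrays with cisplatin were lower, by 0.33 on average (SE 0.07, limma adjusted p = 0.0264). UNG, the glycosylase that removes uracil from DNA, measured 7.72, 7.80 and 7.65 against 8.13, 8.10 and 8.13, which gave -0.40 ± 0.08 (limma adjusted p = 0.0284). AURKB, the kinase of the chromosomal passenger complex in mitosis, measured 8.86, 8.88 and 8.73 against 9.27, 9.27 and 9.19, a change of -0.42 ± 0.08 (limma adjusted p = 0.0207).

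Of these 5 genes none was called without extract, where the changes were 0.02 for MCM10, 0.02 for WDHD1, 0.02 for DNMT1, -0.12 for UNG and -0.25 for AURKB. The differences between the changes with and without extract were -0.49 for MCM10, -0.47 for WDHD1, -0.35 for DNMT1, -0.28 for UNG and -0.17 for AURKB. None of these differences was called, the smallest limma adjusted p being 0.07, for DNMT1. All 5 calls were lost with the floor as a covariate.

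The whole list of 56 measured genes of DNA replication and the G1/S transition lay on the same side. The median change of its members was -0.19, with 52 below zero and 4 above. Called lower were 2 of them, MCM10 and DNMT1, beside 0.076% of all genes. The 3 arrays of the groups were fully apart, downward, for 23 of the 56 genes (41.1%), against 8.88% of all genes. In bulk RNA, fewer cells in a phase of the cycle and less RNA per cell cannot be told apart. MCM5, a helicase subunit that was not called and is named after its values were seen, measured 8.23, 8.32 and 8.01 against 8.77, 8.53 and 8.47 (limma adjusted p = 0.0807). The list's median was -0.11 with the floor as a covariate and -0.13 after quantile normalization, against 0.005 over all genes and -0.06 over the genes above median expression, both as deposited. Without extract the list's median as deposited was -0.05, with 1 gene called higher and 2 lower, where 2.15% of all genes were called higher and 1.65% lower. After nicotine it was -0.09, with 1 called lower, where 0.168% of all genes were called higher and 0.282% lower.

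The list of 62 genes of G2/M and mitosis had a median of -0.14, with 55 below zero. AURKB alone was called lower, beside 0.076% of all genes. The list's median was -0.03 with the floor as a covariate. Without extract the same list had a median of 0.14, with 51 of 62 above zero, 3 called higher and 1 lower, beside 2.15% and 1.65% of all genes. That median is as deposited and was not computed with the covariate. The olfactory receptor mean without extract was 4.55 after cisplatin and 4.63 untreated. With extract it was 4.80 after both agents and 4.63 after extract alone, so the mean shifts of the floor were opposite in sign. The mitotic kinesin KIF4A measured 8.03, 8.15 and 8.04 after both agents and 8.17, 8.37 and 8.50 after extract alone. In cells without extract it measured 8.85, 8.87 and 9.01 after cisplatin and 8.59, 8.51 and 8.71 untreated. Cisplatin arrays were thus the lower ones with extract and the higher ones without it, and the difference of the changes, -0.58 ± 0.13, was called (limma adjusted p = 0.0495). The call for KIF4A was kept with 3 of the 12 arrays left out in turn, and was lost with each untreated array left out and with the floor as a covariate.

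Genes of the DNA damage checkpoint and repair (66 measured) had a median of -0.12, 54 of them below zero and 0 called. The single-strand DNA binding protein gene RPA2 measured 6.21, 6.18 and 5.77 against 6.48, 6.56 and 6.42, and the recombination gene RAD54L 6.94, 6.79 and 6.75 against 7.14, 7.18 and 7.26. Neither was called, although both had their arrays apart (limma adjusted p = 0.189 and 0.211). The list's median was -0.02 with the floor as a covariate. Without extract it was 0.09 as deposited, with 3 genes called higher, beside 2.15% of all genes. Replication-dependent histones (48 measured) had a median of -0.16, or -0.11 with the covariate, and 0 were called. Without extract the histone median as deposited was -0.37 with 11 called lower, beside 1.65% of all genes. After nicotine it was -0.38 with 6 called lower, beside 0.282%. Per array the histone list averaged 7.31 to 7.44 after both agents and 7.39 to 7.74 after extract alone. The ranges were 7.45 to 7.78 after cisplatin alone and 7.94 to 8.15 untreated. Arrays with extract alone thus lay below the untreated ones. The linker histone gene H1-3 measured 7.32, 7.43 and 7.09 against 7.98, 8.33 and 7.66, a change of -0.71 ± 0.18 that was not called (limma adjusted p = 0.116). Histone genes are close copies of one another, so their signals may be shared.

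The remaining called genes came from other pathways. SLC29A1 encodes an equilibrative nucleoside transporter and measured 9.16, 9.13 and 8.86 against 9.43, 9.35 and 9.38. Its change of -0.34 ± 0.07 (limma adjusted p = 0.0264) equalled that without extract, -0.34 ± 0.07. PSMA6, a subunit of the proteasome core, measured 9.25, 9.27 and 8.99 against 9.72, 9.99 and 9.42, a change of -0.54 ± 0.11 (limma adjusted p = 0.029). It was the only one of 28 proteasome genes called, beside 0.076% of all genes called lower. Of the 28, 27 lay below zero, with a median of -0.10, or -0.02 with the floor as a covariate. CALB2, which encodes the calcium-binding protein calretinin, measured 8.42, 8.42 and 8.03 against 8.80, 8.88 and 8.57 (change -0.46 ± 0.10, limma adjusted p = 0.0284).

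SCD, the desaturase that makes monounsaturated fatty acids, had the smallest called change. It measured 11.93, 11.86 and 11.94 against 12.11, 12.10 and 12.20, or -0.22 ± 0.05 (limma adjusted p = 0.029), and its call was lost with any 1 of the 6 arrays left out. Among 26 genes of cholesterol and fatty acid synthesis, 24 lay below zero with a median of -0.15, or -0.11 with the floor as a covariate. SCD alone was called, beside 0.076% of all genes called lower. The list's arrays were apart, downward, for 9 genes (34.6%), against 8.88% of all genes. GSTA1, a glutathione transferase of detoxification, was the 1 gene that rose, from 4.78, 4.94 and 5.04 to 5.51, 5.19 and 5.73. Its change was 0.55 ± 0.12 (limma adjusted p = 0.0437). These levels lie near the floor, the gene has close paralogs, and the call was lost with the floor as a covariate.

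Genes that p53 switches on were not called but lay mostly upward. Of 53 p53 targets 0 were called, yet 42 lay above zero, with a median of 0.11. The arrays were apart upward for 15 of the 53 (28.3%) and downward for 2, against 9.84% and 8.88% of all genes. The median was 0.17 with the floor as a covariate and 0.13 after quantile normalization. CCNG1, a cyclin whose gene is a p53 target, measured 11.23, 11.33 and 11.35 after both agents and 11.03, 11.14 and 10.94 after extract alone. It lay above in every array, by 0.27 ± 0.06 (limma adjusted p = 0.081), and was called under 3 of the alternative settings.

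SESN1, a stress-induced inhibitor of mTORC1 signalling, measured 6.90, 7.11 and 7.06 after both agents against 6.69, 6.87 and 6.63. Its change was 0.29 ± 0.13 (limma adjusted p = 0.345), while without extract it rose by 0.63 ± 0.13 (limma adjusted p = 0.00256). TP53INP1, which promotes p53-dependent cell death, measured 7.33, 7.16 and 7.06 against 6.94, 7.01 and 6.83, a change of 0.26 ± 0.14 beside 0.60 ± 0.14 without extract. The differences were -0.34 for SESN1, with a 95% interval from -0.70 to 0.03, and -0.34 for TP53INP1, from -0.74 to 0.06, and neither was called. The cell cycle inhibitor gene CDKN1A had a change of 0.15 ± 0.16 and the p53 ubiquitin ligase gene MDM2 one of 0.18 ± 0.11, neither called, and their arrays overlapped. Without extract 13 of the 53 targets were called higher, beside 2.15% of all genes, and after nicotine 3 were, beside 0.168%. As deposited, the list's median was similar in each setting, at 0.11 with extract, 0.11 without it and 0.12 after nicotine. Above zero lay 42, 36 and 41 of the targets, in that order. PLK2, a kinase and p53 target, went the other way, at 8.69, 8.80 and 8.69 against 9.06, 9.13 and 8.94 (change -0.32 ± 0.09, limma adjusted p = 0.181).

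**Figure D2:**
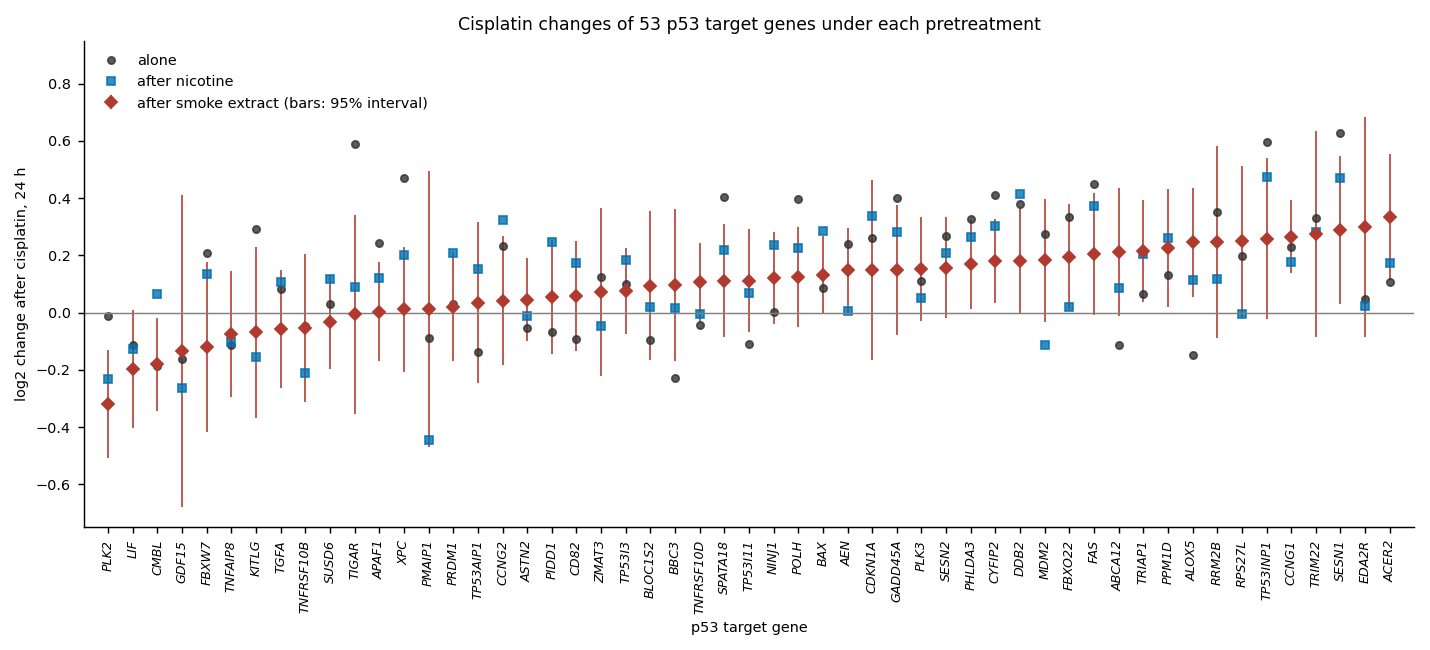
Log2 change after cisplatin at 24 h of the 53 measured p53 targets, ordered by their change in smoke extract pretreated cells (diamonds, with 95% intervals), beside the change alone (circles) and after nicotine (squares). Of the diamonds, 42 lie above zero; the highest circle is SESN1, at 0.63.

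Genes named earlier in these data for their response to smoke extract itself were chosen on results that used the same extract arrays, and none was called after cisplatin. CYP1A1, the aryl hydrocarbon receptor's best known target, measured 9.32, 9.47 and 9.35 after both agents and 9.34, 9.23 and 9.11 after extract alone. The difference was 0.15, with a 95% interval from -0.12 to 0.43. The difference was -0.16 for TIPARP, another target of that receptor (95% interval -0.35 to 0.03), and -0.02 for the collagenase gene MMP1 (-0.28 to 0.24). It was 0.04 for the interleukin gene IL1A (-0.28 to 0.36) and -0.10 for IL1B (-0.38 to 0.18). The other values were -0.10 for SCUBE1, -0.03 for STC2, -0.21 for the Wnt inhibitor gene DKK1, -0.08 for the serine synthesis gene PHGDH and -0.25 for the defensin gene DEFB1. The sign of MMP1, IL1A, STC2, PHGDH and DEFB1 turned under some settings. For DEFB1 the 95% interval from -0.75 to 0.24 was wide, and its change without extract, -0.92, was called.

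Of 40 immediate early and MAP kinase feedback genes CCN1 and DUSP1 were called lower, beside 0.076% of all genes. The list's median was -0.04, or -0.06 with the floor as a covariate. FOS, a subunit of the AP-1 transcription factor that is named here after its values were seen, measured 8.85, 8.40 and 7.16 after both agents and 6.80, 6.72 and 7.52 after extract alone. Replicates 1 and 2 with cisplatin were the highest, but replicate 3 lay below an array without it, and the change of 1.13 ± 0.36 was not called (limma adjusted p = 0.228). FOSB, also chosen after its values were seen, had the same order of arrays, with 8.18, 7.44 and 6.74 against 6.44, 6.01 and 6.95. The MAP kinase phosphatase genes DUSP6 and DUSP4, chosen in the same way, had changes of -0.30 and -0.27 and were not called.

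No other list held a called gene, apart from those given for CXCL8, SCD and PSMA6. Medians were 0.02 over 11 genes of the aryl hydrocarbon receptor pathway, -0.01 over 34 of the NRF2 pathway (0.03 with the floor as a covariate), -0.12 over 22 heat shock genes, -0.06 over 47 of the ATF4 and unfolded protein response and 0.01 over 31 of the BCL2 family and apoptosis. They were -0.05 over 20 genes of platinum and drug transport and -0.09 over 57 of oxidative phosphorylation. With the floor as a covariate the heat shock median was -0.02, that of the unfolded protein response -0.02, that of drug transport -0.01 and that of oxidative phosphorylation -0.01. The aryl hydrocarbon receptor and BCL2 family medians were 0.03 and 0.04. The chaperone gene STIP1 measured 10.07, 10.15 and 9.83 against 10.19, 10.39 and 10.25, and the zinc-binding metallothionein gene MT1B 7.35, 7.22 and 7.22 against 6.81, 6.76 and 7.19. Both had their arrays apart, in opposite directions, and neither was called (limma adjusted p = 0.217 and 0.203).

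**Figure D3:**
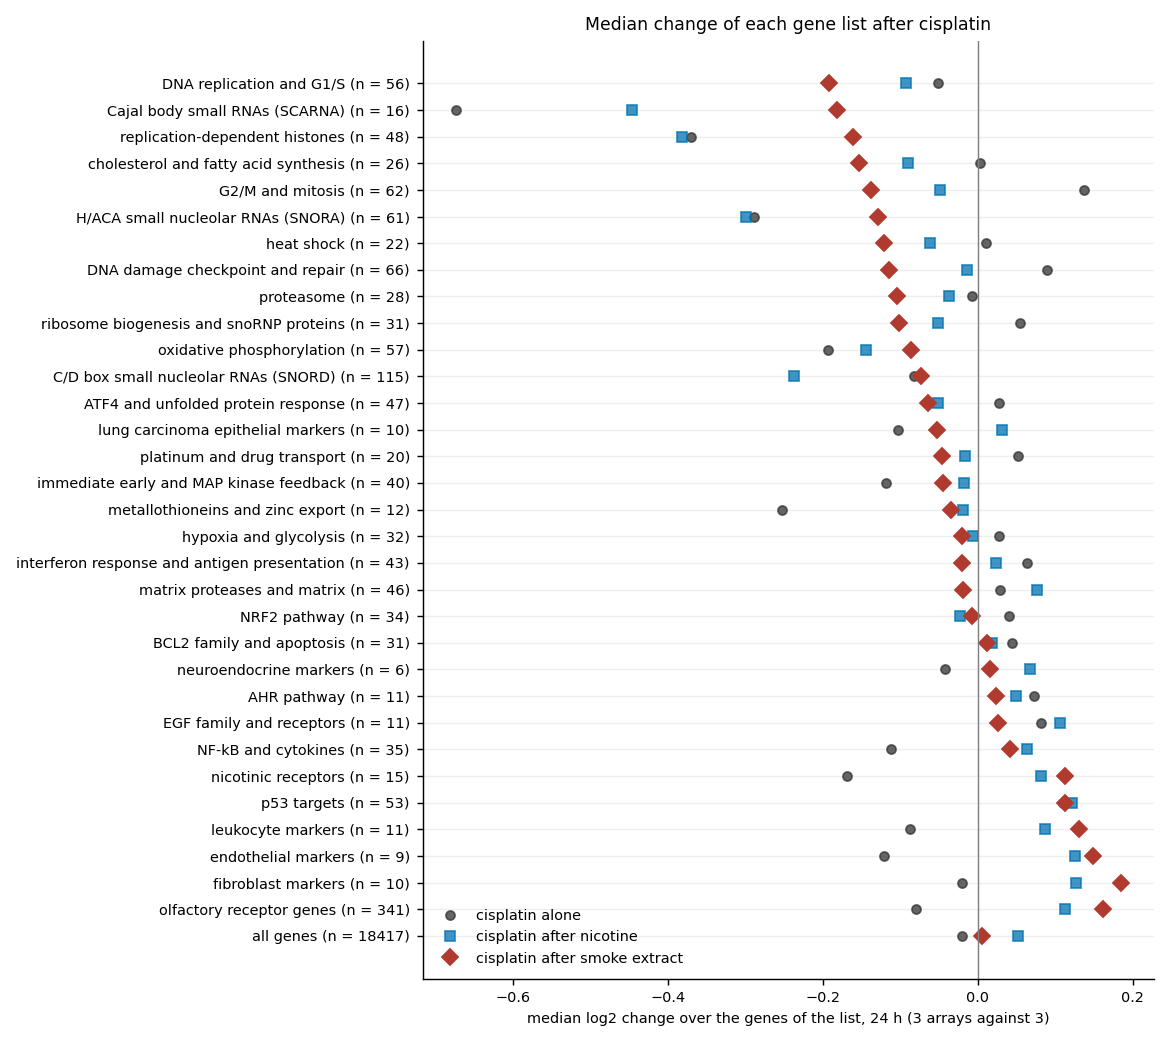
Median log2 change after cisplatin at 24 h over each gene list, in smoke extract pretreated cells (diamonds), in cells given cisplatin alone (circles) and after nicotine (squares). The last line is all 18417 genes, and all values are as deposited. In extract pretreated cells the lowest median is that of DNA replication, -0.19, while the small Cajal body RNAs have the lowest without extract, -0.67.

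Cisplatin without extract, measured on arrays that this comparison does not share, called 700 genes (3.8%), 396 higher and 304 lower, and cisplatin after nicotine called 83 (0.451%). Of the 15 genes called with extract, 10 had the same direction without it and 4 were called there, CCN1, CXCL8, DUSP1 and SLC29A1. These 4 are 26.7% of the 15 and 0.571% of the 700. After nicotine 13 of the 15 had the same direction, and the same 4 were called, 4.82% of the 83. Across all genes the changes with and without extract correlated at r = -0.155, and at 0.11 over the 9208 genes above the median expression. With nicotine the values were 0.395 and 0.355. These are correlations across genes, which are not independent replicates, and they share array processing and the floor.

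The 396 genes that cisplatin alone raised had a median change of -0.01 in extract pretreated cells, with 171 above zero, 225 below and 0 called, whereas after nicotine it was 0.11, with 346 above zero and 7 called. The 304 genes that cisplatin alone lowered had a median of -0.12 with extract, with 237 below zero and 4 called, and -0.22 after nicotine, with 257 below zero and 35 called. Among all genes, 0.00543% were called higher and 0.076% lower with extract, and 0.168% and 0.282% after nicotine. The 0 called of the 396 with extract is thus near the share of all genes. The median change over all genes was 0.005 with extract and 0.05 after nicotine. The median change of the olfactory receptor genes was -0.08 without extract, 0.16 with extract and 0.11 after nicotine.

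Whether the response to cisplatin differed with smoke extract was tested for each gene as a difference of the 2 changes. This called 28 genes (0.152%), with 13 more positive with extract (0.0706%) and 15 more negative (0.0814%). The unadjusted p was under 0.05 for 4137. Small nuclear and nucleolar RNAs led the first kind. SNORA23, a guide RNA for pseudouridine in other RNAs, measured 9.34, 9.38 and 9.42 after both agents and 9.52, 10.31 and 9.69 after extract alone. Without extract it measured 8.84, 9.21 and 9.11 after cisplatin and 10.90, 11.34 and 11.06 untreated. The untreated arrays thus stood above all others, and extract alone lay between them and the cisplatin arrays. The changes were -0.46 with extract and -2.05 without, a difference of 1.59 ± 0.34 (limma adjusted p = 0.0437).

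SNORA3A, of the same class, also had its untreated arrays above all others, with 10.21, 11.02 and 10.51 after both agents, 10.39, 11.45 and 10.83 after extract, 9.87, 10.13 and 10.16 after cisplatin and 11.79, 12.04 and 12.02 untreated. The arrays with both agents and with extract alone overlapped. Its difference was 1.58 ± 0.31 (limma adjusted p = 0.037). The spliceosomal RNA genes RNU5B-1 and RNU4ATAC differed by 1.87 ± 0.41 and 1.08 ± 0.24. RNU5B-1 belongs to a family of near copies, so its signal may be shared. As a class, 0 of 61 H/ACA small nucleolar RNAs were called with extract, against 21 called lower without it and 7 after nicotine. Of all genes, 0.076% were called lower with extract, 1.65% without and 0.282% after nicotine. Their mean level was 7.44 to 7.50 in untreated arrays, 7.17 to 7.31 with extract, 6.99 to 7.15 with cisplatin and 7.02 to 7.15 with both. For the C/D box class, 0 of 115 were called with extract, and 2 were called higher and 25 lower without it. Of all genes, 2.15% were called higher without extract. The C/D box mean was 6.45 to 6.58 untreated, 6.32 to 6.54 with extract, 6.24 to 6.40 with cisplatin and 6.27 to 6.44 with both. For the Cajal body class the counts were 0 of 16 and 8 lower. Its mean was 7.28 to 7.34 untreated, 6.75 to 7.17 with extract, 6.62 to 6.98 with cisplatin and 6.71 to 6.85 with both.

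MTX1 and H2AC25 had the smallest adjusted p of the differences. MTX1 encodes a subunit of the import machinery of the mitochondrial outer membrane, and its gene has a close pseudogene copy. It measured 8.61, 8.39 and 8.35 after both agents, 8.33, 8.36 and 8.01 after extract, 8.20, 7.79 and 8.21 after cisplatin and 8.76, 8.80 and 8.92 untreated. Without extract MTX1 fell by 0.76 on the log2 scale after cisplatin, and with extract the change was 0.22 and not called. The difference was 0.97 ± 0.14 (limma adjusted p = 0.000241). The histone H2A gene H2AC25 measured 6.69, 6.72 and 6.19 after both agents, 5.76, 5.93 and 6.01 after extract, 6.49, 5.66 and 6.45 after cisplatin and 7.47, 7.30 and 7.35 untreated. Its difference was 1.81 ± 0.27 (limma adjusted p = 0.000241). Both calls held with any 1 of the 12 arrays left out. They were lost in a fit on the 24 h arrays only, and that of MTX1 also in a fit on the compared groups alone. H2AC25 was also the 1 gene (0.00543%) whose change differed between extract and nicotine pretreatment, by 1.45 (limma adjusted p = 0.0499). This call against nicotine was kept with only 3 of the 12 arrays of that comparison left out in turn. It was also lost on the compared groups, on the 24 h arrays, with all rows and with a replicate block.

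The named genes with a more negative difference had positive changes without extract. HS2ST1, a heparan sulfate sulfotransferase, measured 8.08, 8.20 and 8.12 after both agents and 8.36, 8.42 and 8.43 after extract, against 8.20, 8.40 and 8.35 after cisplatin and 8.05, 7.94 and 8.04 untreated. The direction was opposite in the 2 settings, and the difference was -0.57 ± 0.12 (limma adjusted p = 0.037). CACNA2D1, a calcium channel subunit, measured 7.84, 8.08 and 8.11 after both agents, 8.22, 8.30 and 8.34 after extract, 8.61, 8.53 and 8.79 after cisplatin and 8.30, 8.22 and 8.27 untreated. Its difference was -0.66 ± 0.15 (limma adjusted p = 0.0495). The nuclease-like gene ENDOD1, the Wnt pathway gene DIXDC1 and the noncoding LINC02693 followed, at -0.62, -0.55 and -0.69. With the floor as a covariate the calls of CACNA2D1, ENDOD1 and DIXDC1 were lost, as was that of KIF4A. Those of HS2ST1 and LINC02693 were kept. When any 1 untreated array was left out, 2 genes remained called, H2AC25 and MTX1.

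**Figure D4:**
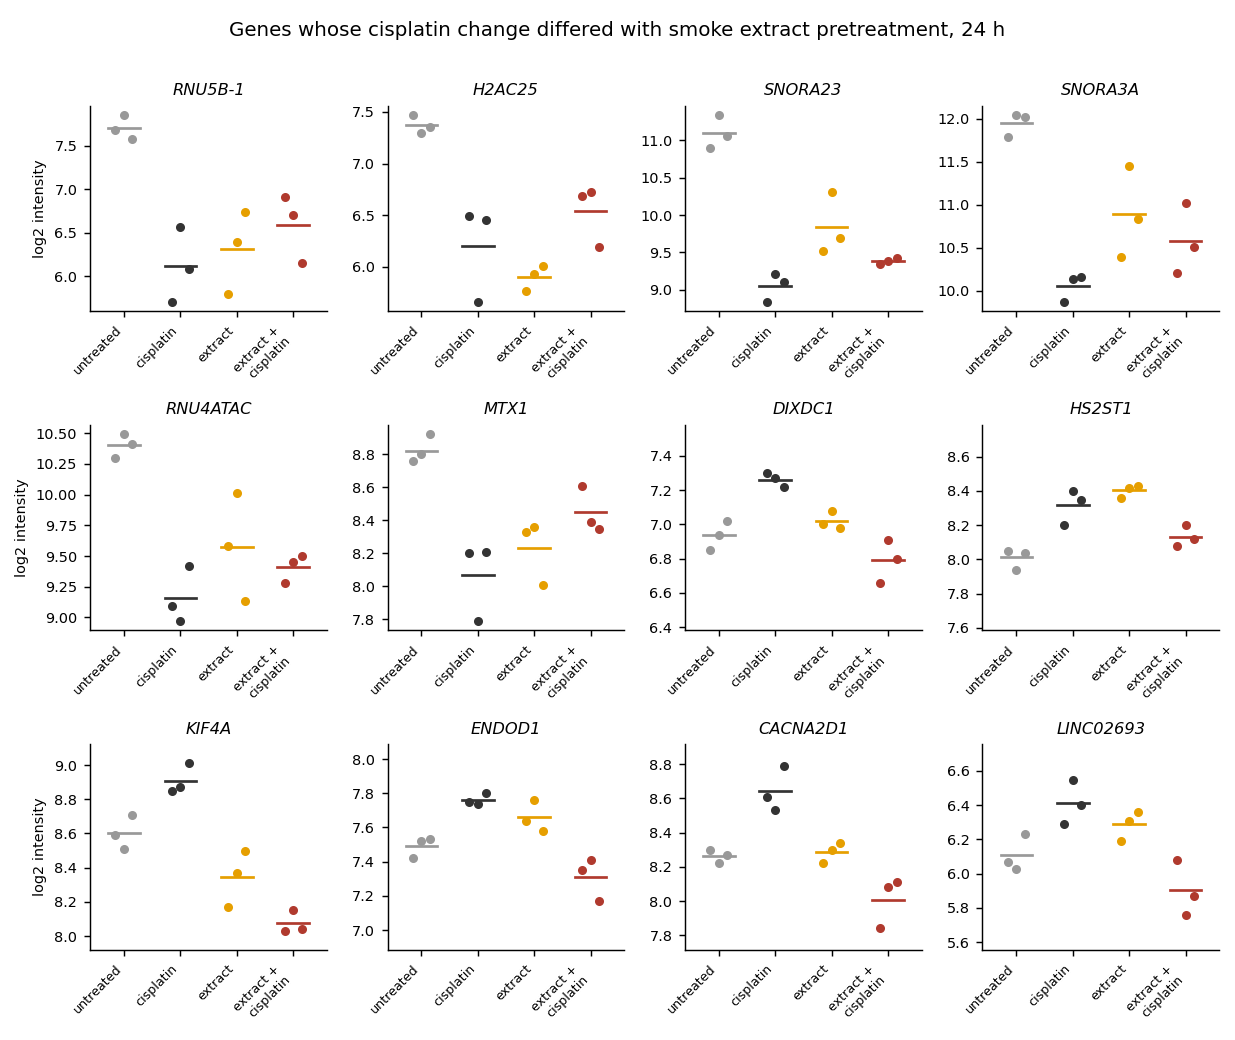
Log2 intensity at 24 h of the 12 named genes whose cisplatin change differed with smoke extract pretreatment (points: 3 arrays per group; line: group mean; each panel has its own axis range). In the first 6 panels the untreated arrays stand highest; in the last 6 the arrays with cisplatin alone lie above untreated, and those with both agents below extract alone.

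No change was detected at 2 h. In extract pretreated cells 0 genes were called 2 h after cisplatin in limma (0%), and 1189 had an unadjusted p under 0.05. The values at 2 h were -0.03 for DUSP1, -0.11 for RGS2 and 0.10 for CCN1. The direct test of 24 h minus 2 h called 0 genes in limma (0%), and 1747 genes had an unadjusted p under 0.05. Its smallest p-values belonged to DNMT1 (-0.49 ± 0.09, limma adjusted p = 0.0606), the RNA-binding protein gene RALY and AURKB (-0.56 ± 0.11, limma adjusted p = 0.0606).

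Radiation at 6 Gy after the same extract, which was compared with the same 3 extract arrays, called 2611 genes (14.2%). Because the controls are shared, values are only set side by side. AURKB changed by -1.88, MCM10 by -2.01, WDHD1 by -1.41 and SLC29A1 by -1.43 after radiation, and all 4 were called. The values of DUSP1 and RGS2 after radiation were 0.26 and 0.05, not called. MDM2 rose by 1.29, TP53INP1 by 1.58 and SESN1 by 1.22 after radiation, beside 0.18, 0.26 and 0.29, none called, after cisplatin.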

How the data were processed

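RNA of NCI-H460 cells was measured on 54 one-colour arrays in 18 groups of 3, taken from the sample titles. Per the labels' protocols, RNA was isolated on spin columns and amplified into sense-strand cDNA, and all treatments ran concurrently. Which plate held which culture is not stated in the labels. The deposited values are taken as log2 intensities from their range of 0.89 to 13.81, so folds rest on an inferred base. The authors ran Affymetrix Power Tools 1.15.0, per the submitters' processing notes. The sources used here do not give background correction, normalization or build, and no detection calls were used, so low levels cannot be told from background.

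Of 33297 rows, 19460 had 1 gene symbol in the platform annotation, 1754 several and 12083 none. The row with the highest mean per symbol gave 18417 genes, and 0 value columns were unused. All 54 arrays entered 1 model with a mean per group (36 residual degrees of freedom) in limma 3.58.1 under R 4.3.3, with files read by version 1.17.8 of data.table, eBayes with trend and Benjamini-Hochberg adjustment over all genes. Calls are at an adjusted p under 0.05, two-sided. The 8 comparisons were 5 changes and 3 differences of changes. Precision is limited by 3 arrays a group. The code was tested on simulated data.

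The arrays compared, the 28 gene lists (872 of 951 memberships measured) and the rules were chosen with earlier results of these data known. Named were up to 12 called genes each way with the largest change and arrays apart, up to 4 called members of each list or else the 2 with the smallest p, 16 genes named before for cisplatin or extract, and for differences the 6 largest each way or the 3 with the smallest p.

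Alternatives were another variance model, fits on fewer arrays, quantile normalization, a filter on expression, all rows, the mean of a gene's rows, the replicate number as a block, array weights, the olfactory receptor mean as a covariate, a 1.5-fold threshold and each array left out.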

Additional observations from a re-analysis of the deposited data

Results flagged for a closer look

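The change after cisplatin differed between cells with and without smoke extract, by the direct test of the difference of changes at 24 h (limma, Benjamini-Hochberg adjustment), in 28 genes. The difference on the log2 scale, extract minus no extract, was 1.87 for RNU5B-1, 1.81 for H2AC25, 1.59 for SNORA23, 1.58 for SNORA3A, 1.08 for RNU4ATAC and 0.97 for MTX1. It was -0.69 for LINC02693, -0.66 for CACNA2D1, -0.62 for ENDOD1, -0.58 for KIF4A, -0.57 for HS2ST1 and -0.55 for DIXDC1. With each of 12 arrays left out in turn, H2AC25 and MTX1 kept their call in all 12. SNORA3A kept it in 7, HS2ST1 in 5, RNU5B-1 and LINC02693 in 4, SNORA23, CACNA2D1, KIF4A and DIXDC1 in 3, and RNU4ATAC and ENDOD1 in 2. Each untreated array, when left out, ended the calls of these 10 genes.

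Between extract and nicotine pretreatment, the change after cisplatin differed in 1 gene, H2AC25, by 1.45, and this call was kept with 3 of 12 arrays left out in turn.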

How the results depend on the processing

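Calls in extract pretreated cells depended on the arrays and on the scaling. Against 15 genes called, a fit on the compared groups only gave 0, the 24 h arrays 3, all rows 6, array weights 128 (weights from 0.198 to 7.39), the olfactory receptor covariate 3 (1 higher, 2 lower), a 1.5-fold threshold 4, and arrays left out 2 to 34. Quantile normalization gave 22, split into 9 higher and 13 lower beside 1 and 14, and 10 of these were among the 15. Arrays of the compared groups with the same replicate number had correlations of deviations of -0.05, 0.27 and 0.07. These values do not settle whether the replicate numbers pair the samples. With a replicate block 24 genes were called, all 15 among them.

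Counts for the difference by extract (28 genes) were 8 without trend, 2 on the compared groups, 0 on the 24 h arrays, 85 after quantile normalization, 67 for expressed genes, 57 for all rows, 75 with a replicate block, 2391 with array weights, 54 with the covariate (46 higher, 8 lower), 15 past 1.5-fold and 2 to 193 with arrays left out, the highest without replicate 2 of the group given both agents. For extract against nicotine (1 gene) they were 2 without trend, 0 on the compared groups, 0 on the 24 h arrays, 0 for expressed genes, 0 for all rows, 0 with a replicate block, 1353 with weights, 2 with the covariate and 0 to 437 with arrays left out. For 24 h minus 2 h (0 genes) they were 7 for expressed genes, 4 with a replicate block, 1370 with weights and 0 to 12 with arrays left out, and for 2 h they were 1555 with weights and 0 to 0 with arrays left out.

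Cisplatin alone (700 genes) gave 241 on the compared groups, 130 on the 24 h arrays, 1052 after quantile normalization, 1072 for all rows, 3565 with weights, 1179 with the covariate, 95 past 1.5-fold and 225 to 689 with arrays left out. After nicotine (83 genes) the counts were 46, 3, 173, 142, 7018, 129 and 35 in that order, 181 for expressed genes, and 6 to 1348 with arrays left out. Radiation after extract (2611 genes) gave 1226 on the compared groups, 5721 with weights, 568 past 1.5-fold and 1920 to 2894 with arrays left out.

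Uncalled changes of extract-responsive genes turned sign. MMP1 was 0.0401 after quantile normalization, 0.0511 with weights and 0.105 with the covariate, and -0.0960 to 0.0732 with arrays left out. STC2 was 0.0354 after quantile normalization and 0.125 with the covariate, and -0.0736 to 0.0335 with arrays left out. PHGDH was 0.0310 with the covariate and -0.139 to 0.0301 with arrays left out, DEFB1 was 0.0375 with the covariate, and IL1A was -0.0776 to 0.151 with arrays left out. CCNG1, uncalled as reported, was called after quantile normalization, with a replicate block and with array weights (adjusted p = 0.0144, 0.0491 and 0.0265 in limma). Over single genes, 1022 alternatives kept direction and call, 246 lost a call, 28 gained one and 13 turned sign. The cause of these shifts was not tested.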
